A study of Rattus norvegicus with 18 samples.

Results

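Among the 6588 genes that the authors listed as changed in 1 or more of 3 comparisons of rat left ventricles, 7 are described here: S100a8, S100a9, Csf3r, Mmp8 and Oscar, which are genes of neutrophils and related myeloid cells, and Il1b and Il1rn, which encode interleukin-1 beta and the antagonist of its receptor. They were chosen by symbol, and the choice was made with their folds known: several stood lower in lean than in WKY hearts and higher in obese than in lean hearts. Their folds are therefore a description and are not put to a further test. The groups were WKY (Wistar Kyoto, the normotensive control strain), ZSF1 Lean (the hypertensive group) and ZSF1 Obese (hypertension with metabolic syndrome, modelling HFpEF, heart failure in which the ejection fraction is preserved), with 6 male rats in each and 18 in all; the ZSF1 groups are called lean and obese below. Lean and obese ZSF1 rats come from one hybrid strain, in which the obese animals carry faulty copies of the leptin receptor gene, so the step from WKY to lean changes strain and blood pressure together. The sources used here give no ages.

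Neutrophils are short-lived white cells that leave the blood for injured tissue. S100A8 and S100A9 pair to form calprotectin, an abundant calcium-binding protein of the neutrophil cytosol that acts as an alarm signal once released. CSF3R is the receptor for granulocyte colony-stimulating factor, which drives neutrophil production, and MMP8 is the neutrophil collagenase, stored in granules. OSCAR is an immunoglobulin-like receptor of myeloid cells and osteoclasts that binds collagen and signals through the adaptor encoded by Fcer1g. Interleukin-1 beta is made as an inactive precursor, cut by caspase-1 in the inflammasome, and acts through a receptor that the protein encoded by Il1rn occupies without signalling.

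Each list gives a gene's fold (the level in the first group divided by that in the second) and its adjusted p, and holds genes whose fold reached 2 or fell to 0.5 or less. Values per rat were not analysed here, so each gene is given by its fold and adjusted p alone, with no spread between rats and with depth unknown. A gene missing from a list may have missed either threshold or have gone undetected, and these cannot be told apart. The tissue label could likewise not be checked against marker levels. Of 12 cardiomyocyte markers, 7 were lower in obese than in lean hearts and 5 were not listed. Among all 5700 listed genes of that comparison, 2655 were lower. In bulk tissue, fewer cells of a type and less RNA per cell cannot be told apart.

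The first step, ZSF1 obese against ZSF1 lean, adds metabolic syndrome to hypertension. All 7 genes were higher in obese hearts, where 53.4% of all listed genes were higher. Since this contrast helped to choose the genes, nothing is read from that count. The calprotectin pair stood near the top of the list. S100a9 (ENSRNOG00000011483) had 22.8 times the lean level (adjusted p = 2.31e-30) and ranked 3 of 5700 genes by fold per the authors' deposited table. S100a8 (ENSRNOG00000011557) reached 20.0 times that level (adjusted p = 5.1e-17) and ranked 10 per the authors' deposited table. The genes of the 2 subunits thus stood at similar folds in this comparison.

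Oscar (ENSRNOG00000055716) ranked 6, with a fold of 21.9 (adjusted p = 5.44e-14) per the authors' deposited table. Mmp8 (ENSRNOG00000009907) ranked 9, with a fold of 20.3 (adjusted p = 1.95e-10) per the authors' deposited table. Csf3r (ENSRNOG00000008759), the gene of the growth factor receptor, had a lower value, 10.3 (adjusted p = 5.42e-22) per the authors' deposited table. The interleukin-1 genes followed. Il1rn (ENSRNOG00000005871), the antagonist, stood at 9.13 times the lean level (adjusted p = 2.04e-19) and Il1b (ENSRNOG00000004649), the agonist, at 6.36 times (adjusted p = 5.44e-27) per the authors' deposited table. The antagonist thus had the larger fold and the agonist the smaller adjusted p.

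**Figure D1:**
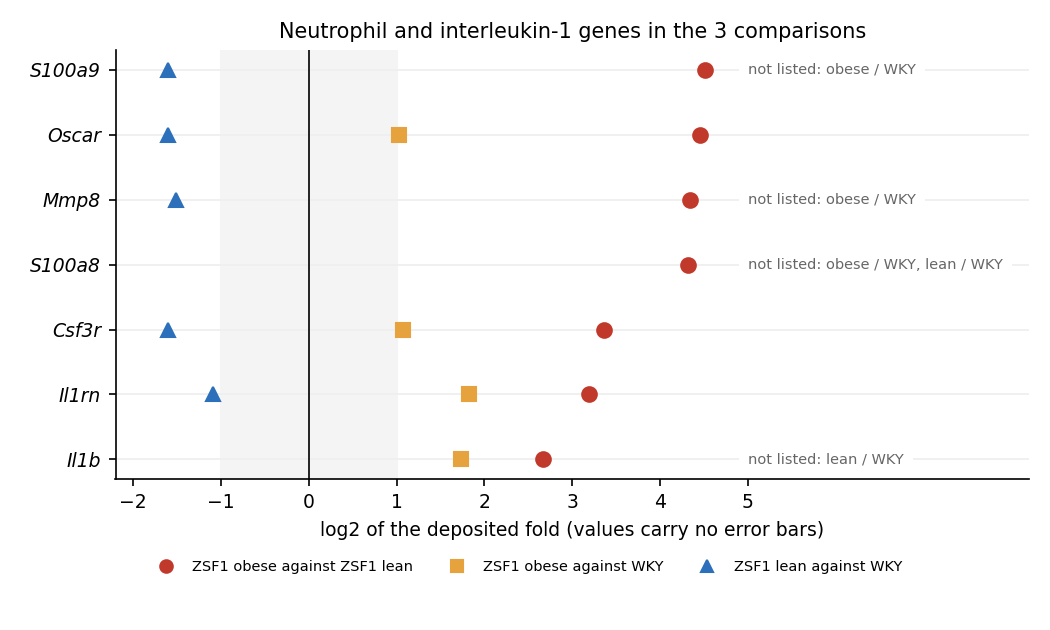
Log2 of the deposited fold (x axis) for each of the 7 genes (rows) in the 3 comparisons, with the range below the fold threshold of the tables shaded. Circles for obese against lean lie at folds of 6.36 to 22.8, while the squares for obese against WKY that exist lie at 2.04 to 3.56 and the triangles for lean against WKY lie left of 0.

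The 7 genes ranked lower by adjusted p than by fold. Among the 3045 genes that were higher in obese than in lean hearts, S100a9 ranked 473 by adjusted p, Il1b 591, Csf3r 828, Il1rn 971, S100a8 1112, Oscar 1351 and Mmp8 1696 per the authors' deposited table. Mmp8, the collagenase gene, was thus the ninth gene of the table by fold, yet its adjusted p was above the median of the higher genes, 2.95e-12. Standard errors and counts, which would show how far low counts or spread between rats go with this, were not analysed here.

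**Figure D2:**
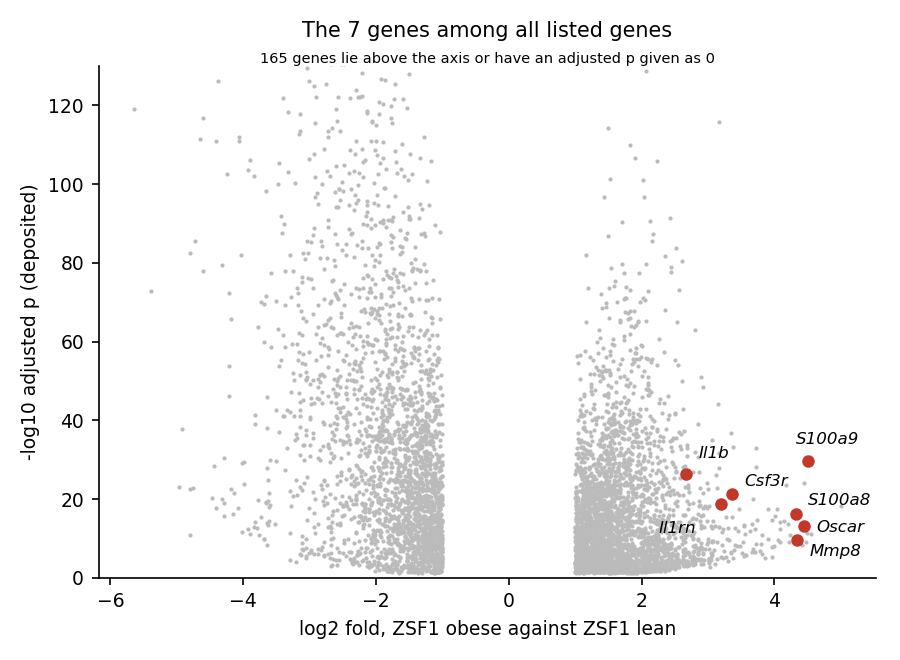
Each point is a gene of the obese against lean table, with log2 fold on the x axis and -log10 of the deposited adjusted p on the y axis; the axis ends at 130 and 165 genes lie above it or have an adjusted p given as 0. The 7 labelled genes lie to the right, at log2 folds from 2.67 to 4.51, with Mmp8 the lowest of them on the y axis and S100a9 the highest.

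Obese hearts were next set beside those of the control strain. Of the 7 genes, 4 were listed, all higher, where 54% of the 5709 listed genes were higher, and their folds were far smaller than against lean hearts. Il1rn had a fold of 3.56 over WKY (adjusted p = 7.16e-09) and Il1b one of 3.32 (adjusted p = 2.99e-08) per the authors' deposited table. Against WKY the antagonist and the agonist thus had nearly equal folds. Csf3r stood just inside the threshold with a fold of 2.10 (adjusted p = 0.000598) per the authors' deposited table. Oscar also stood just inside, with a fold of 2.04 (adjusted p = 0.0213) per the authors' deposited table, a call that a threshold of 0.01 ends. S100a8, S100a9 and Mmp8 were not listed, although their folds over lean hearts were 20.0 to 22.8.

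The third comparison, ZSF1 lean against WKY, asks what differs with strain and hypertension in the absence of obesity. Of the 7 genes, 5 were listed, all lower in lean hearts, where 36.1% of the 233 listed genes were lower. This contrast too was used in the choice. S100a9, Csf3r and Oscar all had a fold of 0.33 over WKY (adjusted p = 8.22e-10, 9.29e-11 and 9.52e-10) per the authors' deposited table. Mmp8 stood at 0.35 (adjusted p = 5.37e-09) and Il1rn at 0.47 (adjusted p = 3.12e-06) per the authors' deposited table. The deposited folds of S100a9, Csf3r, Oscar and Mmp8 thus lay close together and that of the antagonist was nearer to the threshold. S100a8 and Il1b were not listed. The largest adjusted p in this table was 0.000347, while 11.2% of the genes in obese against lean and 12.1% of those in obese against WKY had a larger one. A gene could therefore be missing here with an adjusted p that the obese tables would have listed.

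Read step by step, S100a9 and Mmp8 were lower in lean than in WKY hearts, higher in obese than in lean hearts, and not listed between obese and WKY hearts. Csf3r, Oscar and Il1rn showed the same first steps and were also higher in obese than in WKY hearts. Il1b was higher in obese hearts in both comparisons, and S100a8 was listed against lean hearts alone. The comparisons share their groups, so the steps are not independent of each other.

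The folds of the steps did not multiply to the direct fold. For Oscar, the lean to WKY fold times the obese to lean fold gave 7.21, where the direct obese to WKY fold was 2.04 per the authors' deposited table. For Csf3r the product was 3.39 beside a direct fold of 2.10, and for Il1rn 4.29 beside 3.56, per the authors' deposited table. The products for S100a9 and Mmp8 were 7.52 and 7.09, above the threshold of 2, yet neither gene was listed against WKY. The quotient of the 2 obese folds gives a second estimate of the lean to WKY fold, which was 0.0934 for Oscar, 0.204 for Csf3r and 0.39 for Il1rn. For each the deposited lean fold was nearer to 1 than the quotient. The same held for all 79 genes in all 3 tables, with a median gap of 0.34 on the log2 scale, and of 0.19 for the 28 of them that were lower in lean hearts. Oscar had the largest gap of those 28 genes, 1.82. The deposited lean to WKY folds of these genes are thus smaller changes than the obese tables give, and the cause was not tested.

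**Figure D3:**
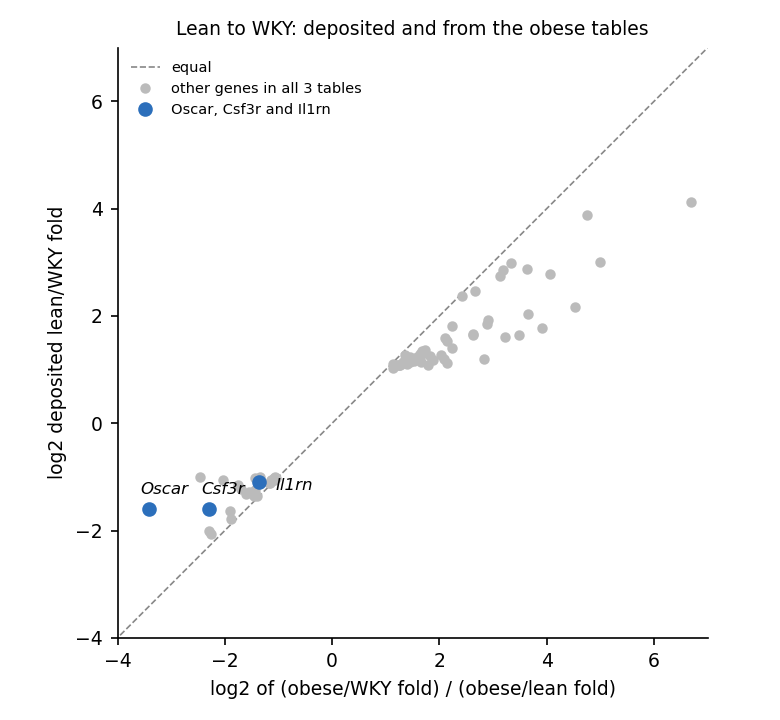
Log2 of the deposited lean to WKY fold (y axis) and log2 of the quotient of the obese to WKY and obese to lean folds (x axis) for the 79 genes in all 3 tables, with a dashed line where both are equal. Every point lies on the side of the line nearer to 0 on the y axis, and Oscar lies farthest from it among the genes lower in lean hearts.

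Il1b, with no lean to WKY value, had a quotient of 0.521. Over the 4847 genes in both obese tables the median quotient was 1.00. Counted from the lowest, Oscar ranked 1, Csf3r 6, Il1rn 39 and Il1b 105 among them. The 4 genes thus belong to those whose rise in obese hearts was largest against lean hearts relative to WKY hearts, which is the pattern they were chosen for.

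Other neutrophil genes widen the description. Their list, like the other lists below, was chosen with earlier results of these data known, so its counts and medians are no independent support. The list of 38 granule, receptor and surface genes holds 4 of the 7 genes, and of the other 34, 17 were higher and 1 was lower in obese than in lean hearts, with 16 not listed. Their median fold was 5.33, beside 2.10 for all listed genes, higher and lower, and 3.01 for those that were higher. In obese against WKY hearts 14 of the other 34 were listed, 13 higher and 1 lower, with a median fold of 5.39. There the median was 2.11 over all listed genes and 3.05 over the higher ones. Among all listed genes 53.4% were higher against lean hearts and 54% against WKY hearts. The folds that follow are against lean hearts unless WKY is named. The leading ones were Pglyrp1, a granule protein that binds bacterial cell walls (fold 9.65), Ngp, a granule protein (fold 8.52), the ficolin gene Fcnb (fold 6.82), Cebpe, a transcription factor of granule genes (fold 6.77), and the protease inhibitor gene Slpi (fold 6.28) per the authors' deposited table. Mmp9, the gelatinase of neutrophils, had a fold of 6.15 per the authors' deposited table. The exception was Ncf1, a subunit of the phagocyte oxidase, at 0.49 of the lean level (adjusted p = 1.94e-12) per the authors' deposited table. Its partner genes Cybb and Ncf4 moved the other way, with folds of 5.82 and 5.28 per the authors' deposited table. Ncf1 stood lower against WKY too, at 0.319, while Cybb stood at 5.98 per the authors' deposited table.

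The neutrophil list held genes of differing course. Of its genes higher in obese than in lean hearts, 14 were also higher than in WKY hearts and 7 were not listed against WKY, among them S100a8, S100a9, Mmp8, Mmp9, Pglyrp1 and Lcn2. Of these 7, 5 were lower in lean than in WKY hearts, and the list had no other gene lower there than Csf3r. Pglyrp1 stood at 0.43 and Lcn2, which encodes a siderophore-binding granule protein, at 0.47 of the WKY level per the authors' deposited table. In obese against lean hearts Lcn2 had a fold of 3.43 per the authors' deposited table. Itgb2, an integrin subunit that macrophages share with neutrophils, stood at 5.39 against lean and 4.56 against WKY hearts, and Itgam, its partner, at 3.14 and 2.87, per the authors' deposited tables. Slpi stood higher against WKY, at 15.1, per the authors' deposited table. The list's 16 genes in none of the tables include those of primary granules, Mpo, Elane, Prtn3 and Ctsg, and the chemokine receptors Cxcr1 and Cxcr2.

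Markers of other leukocytes moved in the obese hearts as well. Of 12 macrophage markers 8 were listed against lean hearts and 8 against WKY hearts, all higher, with median folds of 3.72 and 5.28. Vsig4, a complement receptor of resident macrophages, had folds of 11.7 and 10.3 and Cd68 folds of 5.98 and 6.5 per the authors' deposited tables. Of 12 lymphocyte markers 8 were listed in each comparison, all higher, with median folds of 3.49 and 3.43. Among all listed genes 53.4% and 54% were higher, with medians of 3.01 and 3.05 for the higher ones. None of the macrophage or lymphocyte markers was listed in lean against WKY hearts, and none of 9 platelet markers in any comparison. Their part in the folds of the 7 genes was not tested.

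Attractants of neutrophils were higher where listed. Of 17 such genes and receptors 6 were listed in obese against lean hearts and 5 in obese against WKY hearts, all of them higher. Of all listed genes 53.4% and 54% were higher in these comparisons. Cxcl2 (fold 5.10, adjusted p = 0.00368) and Cxcl1 (fold 2.66, adjusted p = 0.000378), ligands of the neutrophil chemokine receptor, were listed against lean hearts alone per the authors' deposited table. Ptafr, the receptor for platelet-activating factor, stood at 4.06, and Alox5 and Alox5ap, which make leukotrienes, both at 3.27 per the authors' deposited table. Csf3, the ligand of CSF3R, was in none of the tables. Of the other 15 genes of granulocyte colony-stimulating factor signalling, 5 were listed in obese against lean hearts, all higher. Among them were Cebpe, Spi1 (fold 5.54), Cebpd (fold 2.75) and Lyn (fold 2.30) per the authors' deposited table. Cebpb took a different course, since it was higher in lean than in WKY hearts (fold 2.35) and in obese than in WKY hearts (fold 2.24), and not listed between obese and lean, per the authors' deposited tables. In obese against WKY hearts 6 of these 15 were higher and Stat5b was lower, at 0.46, per the authors' deposited table.

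The S100 family shows how S100a8 and S100a9 stood among their relatives. Of 13 other S100 genes 6 were listed in obese against lean hearts, all higher, at folds of 2.85 to 10.3. Against WKY hearts 7 were listed, all higher, at 2.03 to 10.5. Among all listed genes 53.4% and 54% were higher in these comparisons. S100a4, a gene of fibroblasts and leukocytes, stood at 10.3 against lean and 10.5 against WKY hearts per the authors' deposited tables. S100a10 stood at 6.06 and 5.82, S100a11 at 5.13 and 4.69, S100a6 at 3.71 and 6.15, S100b at 3.23 and 2.93 and S100a3 at 2.85 and 6.87 per the authors' deposited tables. S100a16 was listed against WKY alone, with a fold of 2.03 per the authors' deposited table. The 6 relatives higher against lean hearts were thus listed against WKY as well, unlike S100a8 and S100a9, and none of the 13 was listed in lean against WKY hearts. Most genes were listed in both, 4847 of the 5700 in obese against lean hearts. A difference between the genes was not tested.

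Of 7 genes reported as receptors of calprotectin or their partners, 3 were higher in obese than in lean hearts: Cd14 (fold 4.23), Cd33 (fold 3.73) and Ager, the receptor for advanced glycation end products (fold 3.07), per the authors' deposited table. Bsg, which encodes basigin, was lower, at 0.382, per the authors' deposited table. Among all listed genes of that comparison 53.4% were higher. The receptor gene Tlr4 was not listed. Against WKY the same genes stood at 5.46, 3.61, 3.89 and 0.349 in that order per the authors' deposited table.

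For the collagenase, relatives and inhibitors were compared. Besides Mmp8 and Mmp9, Mmp2 (fold 2.09) and the inhibitor gene Timp1 (fold 8.34) were higher in obese than in lean hearts per the authors' deposited table. Against WKY hearts Timp1 stood at 9.58, Timp4 at 2.87 and Mmp2 at 2.04 per the authors' deposited table. Mmp13, the other rodent collagenase of the list, was not listed.

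Oscar lies in a set of receptors and kinases with shared adaptors. Of 12 related genes 8 were higher and 1 lower in obese than in lean hearts, and 8 higher and 2 lower than in WKY hearts. Among all listed genes 53.4% and 54% were higher in these comparisons. The adaptor gene Fcer1g stood at 6.15 against lean and 4.35 against WKY hearts, and Tyrobp, a second adaptor, at 6.45 and 5.39, per the authors' deposited tables. Lilrb4, an inhibitory receptor, stood at 18.1 against lean and 7.16 against WKY hearts per the authors' deposited tables. Trem2 stood at 6.82 and 7.36, and Spi1, the gene of the myeloid factor PU.1, at 5.54 and 5.43 per the authors' deposited tables. Oscar, at 21.9 and 2.04, thus had a much smaller fold against WKY than its adaptor, with no test of the difference. Card9 was lower in both, at 0.369 and 0.287, and Mitf lower against WKY at 0.451 per the authors' deposited tables. Immune receptor families hold similar copies, so the values of Lilrb4 are uncertain where reads could fit several genes.

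The interleukin-1 ligand family has 10 genes on the list. Besides Il1b and Il1rn, Il18 and Il33 were listed and the rest were not, among them Il1a. Il18, which encodes another inflammasome product, stood at 7.62 against lean hearts (adjusted p = 1.1e-16) and 3.56 against WKY hearts per the authors' deposited tables. Il33, an alarm cytokine of stromal cells, stood at 4.11 and 4.69 per the authors' deposited tables. Il1b, Il1rn and Il18 thus had smaller folds against WKY than against lean hearts and Il33 did not, with no test of the difference.

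Receptors of the family were higher where listed. Of 11 receptor genes 4 were listed in obese against lean hearts and 5 in obese against WKY hearts, all of them higher. Over all listed genes the shares that were higher were 53.4% and 54%. Il1r2, the decoy receptor, which neutrophils carry, stood at 5.50 against lean and 3.66 against WKY hearts per the authors' deposited tables. Sigirr, an inhibitory receptor, stood at 3.12 (adjusted p = 4.87e-32) and 3.56 per the authors' deposited tables. Il18r1 stood at 2.50 and 6.73 and Il1rl2 at 2.46 and 8.23, while Il18rap was listed against WKY alone at 2.62, per the authors' deposited tables. The signalling receptor genes Il1r1 and Il1rap were in none of the tables.

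Downstream signalling genes went both ways. Of 17, 5 were higher and 4 lower in obese than in lean hearts, and 6 higher and 5 lower than in WKY hearts. The split was thus near that of all listed genes, of which 53.4% and 54% were higher. Nfkbia, the inhibitor of NF-kappaB and itself one of its targets, stood at 5.54 and the receptor kinase genes Irak4 and Irak3 at 3.86 and 3.76 in the obese against lean table, the authors' deposited table. Ikbkg, the scaffold of the kinase complex that frees NF-kappaB, stood at 0.233 and Tab3, an adaptor, at 0.418 per the authors' deposited table. Map3k7, the kinase between receptor and NF-kappaB, was higher than in WKY in both ZSF1 groups, with folds of 5.46 in lean and 14.3 in obese hearts, and was not listed between them, per the authors' deposited tables.

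Inflammasome genes were mostly higher. Of 15, 11 were listed in obese against lean hearts, 10 higher and 1 lower, with a median fold of 2.99. Against WKY hearts 10 were listed, 9 higher and 1 lower, with a median of 2.77. Over all listed genes, 53.4% and 54% were higher in these comparisons. The medians there were 2.10 and 2.11 over all, and 3.01 and 3.05 over the higher genes. Casp4 stood at 3.58, the channel gene Panx1 at 3.41, Casp1, which encodes the enzyme that cuts interleukin-1 beta, at 3.25 and the adaptor gene Pycard at 3.18 per the authors' deposited table. Nek7, a kinase that binds NLRP3, was the lower one, at 0.261 (adjusted p = 6.05e-38) per the authors' deposited table. Of 20 genes known to be induced by interleukin-1, 10 were listed against lean hearts, all higher, with a median fold of 4.55. Against WKY hearts 10 were listed, 9 higher and 1 lower, with a median of 4.84. Selp stood at 9.38, Vcam1 at 6.23, Ptgs2 at 5.98, Icam1 at 5.43 and Cxcl2 at 5.10 in the obese against lean table, the authors' deposited table. The lower one against WKY was Ccl20, at 0.325 (adjusted p = 0.0396) per the authors' deposited table. Il6 was in none of the tables.

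**Figure D4:**
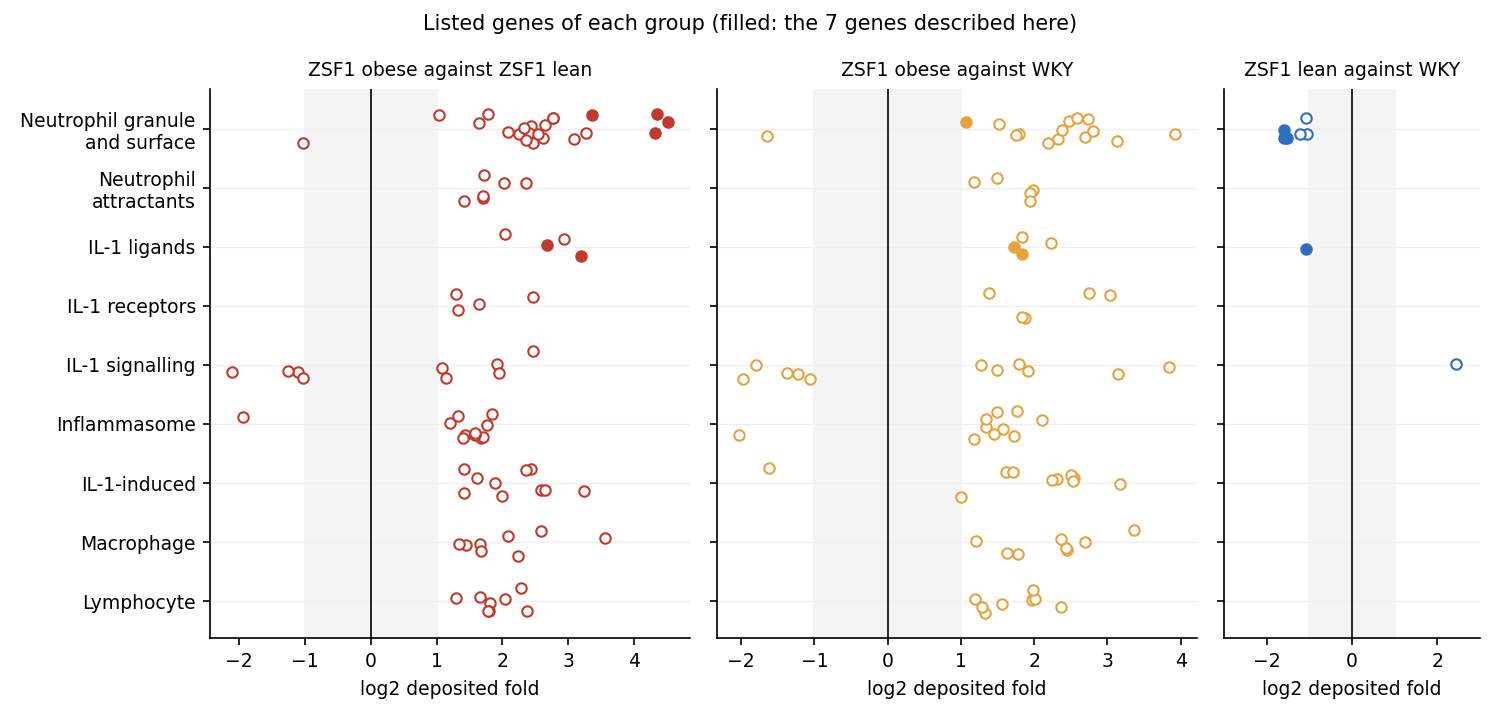
Log2 of the deposited fold (x axis) of each listed gene in 9 gene groups (rows, points spread vertically for legibility), in 1 panel for each comparison; filled points are genes of the 7, and unlisted genes have no point. Against lean hearts S100a8, S100a9 and Mmp8 lie to the right of the other neutrophil genes, against WKY they have no point, and in lean against WKY hearts the listed neutrophil genes lie left of 0.

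The genes nearest to each of the 7 in log2 folds were sought among named genes listed in exactly the same tables. Of 45 candidates Mmp8 was nearest to S100a9, at a distance of 0.19 over 2 tables, followed for both genes by Cyp1a1, which encodes a xenobiotic-metabolising enzyme, and Pglyrp1. Of 76 candidates in all 3 tables the nearest to Csf3r were Rpph1, Sall1 and Ly49si1, at distances of 0.59 to 0.72. The same 3 genes were the nearest to Il1rn, at 0.31 to 0.62. The nearest to Oscar was Ly6h at 0.97, followed by Csf3r at 1.09 and Rpph1 at 1.27. Among 4534 candidates in both obese tables the nearest to Il1b were Slamf6 at 0.04, Aard at 0.09 and the neutrophil list gene Fcnb at 0.10. S100a8, in 1 table, had no candidate within 0.8, its nearest being Ooep at 0.87, Rab25 at 0.94 and Gjb2 at 1.10 of 733. Mmp8, Oscar and S100a9 were not candidates for S100a8, since each was also listed in another comparison. Their obese to lean folds, 20.3, 21.9 and 22.8, lay close to that of S100a8, 20.0.

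By position, S100a8 and S100a9 are next to each other on chromosome 2 in the RefSeq annotation of GRCr8, a later assembly than the authors' build. Of the other genes within 4 protein-coding genes on either side of S100a8, S100a4 and S100a6 were higher in obese than in lean hearts. None of the 8 neighbours of Mmp8 on chromosome 8, 7 of which have names of the Mmp family, and none of the 8 neighbours of Oscar on chromosome 1 was listed in obese against lean hearts. Il1b and Il1rn lie on chromosome 3 and are not among each other's neighbours. Il1a, a neighbour of Il1b, and the 4 interleukin-1 family genes near Il1rn were not listed in obese against lean hearts. Of the 8 neighbours of Il1b, Ckap2l alone was listed there, with a fold of 3.10, and of the 8 of Il1rn, Psd4 and Pax8 were, with folds of 2.33 and 16.9, per the authors' deposited table. Of the 8 neighbours of Csf3r on chromosome 5, Stk40 alone was listed, at 0.366 of the lean level, per the authors' deposited table.

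Promoter windows were matched in the RefSeq table for 6 of the 7 genes: Csf3r, Il1b, Il1rn, Mmp8, Oscar and S100a9. Since all of these genes were higher in obese than in lean hearts, 4 windows are shown for a neutrophil alarm gene, the growth factor receptor, the collagen receptor and the interleukin-1 agonist. Each holds the 250 bases before the gene's start in GRCr8, 5′ to 3′ on the gene's strand. Capitals mark matches to a C/EBP motif, TTNCNNAA, and a PU.1 motif, GAGGAA, sought on both strands. These are motifs of factors that direct myeloid genes.
S100a9, chr2:178490623-178490872, minus strand: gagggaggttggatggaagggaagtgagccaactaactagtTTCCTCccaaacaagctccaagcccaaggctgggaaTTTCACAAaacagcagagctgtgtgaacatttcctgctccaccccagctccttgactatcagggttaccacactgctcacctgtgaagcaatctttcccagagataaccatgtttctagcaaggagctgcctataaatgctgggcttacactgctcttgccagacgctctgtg
Csf3r, chr5:143582970-143583219, plus strand: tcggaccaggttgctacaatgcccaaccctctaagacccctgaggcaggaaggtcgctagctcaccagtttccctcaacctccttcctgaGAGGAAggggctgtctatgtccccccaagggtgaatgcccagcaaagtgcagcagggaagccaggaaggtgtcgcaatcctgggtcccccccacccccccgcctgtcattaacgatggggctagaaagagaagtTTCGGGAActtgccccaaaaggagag
Oscar, chr1:74522633-74522882, plus strand: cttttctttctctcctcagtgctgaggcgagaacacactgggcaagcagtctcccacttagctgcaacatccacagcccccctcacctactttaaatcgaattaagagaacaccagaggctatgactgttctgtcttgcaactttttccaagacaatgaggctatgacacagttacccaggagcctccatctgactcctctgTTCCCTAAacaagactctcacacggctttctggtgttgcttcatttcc
Il1b, chr3:137036582-137036831, minus strand: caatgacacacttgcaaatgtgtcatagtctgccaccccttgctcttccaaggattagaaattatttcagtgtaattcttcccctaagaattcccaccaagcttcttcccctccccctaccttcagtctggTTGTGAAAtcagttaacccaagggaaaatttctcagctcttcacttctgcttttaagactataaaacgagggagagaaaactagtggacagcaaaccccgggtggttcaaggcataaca

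The C/EBP motif was found in all 6 windows and in 37.2% of 33469 RefSeq windows of the same length. In S100a9 it lies 173 to 166 bases before the start and in Oscar 48 to 41. In Csf3r (26 to 19) and in Il1b (119 to 112) it lies on the opposite strand, so the capitals there show its reverse complement. The PU.1 motif was found in 2 of the 6, S100a9 (209 to 204 bases before the start, on the opposite strand) and Csf3r (160 to 155), and in 23.3% of all windows. No C/EBP match overlapped a PU.1 match, and 1 pair of C/EBP matches in Il1rn overlapped. The AP-1 motif TGANTCA (6.34% of all windows) and the kappaB motif (6.33%) had no match in the 6. A match of letters is a description of the window and does not show that a factor binds there.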

How the data were processed

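Left ventricular RNA of 18 male rats (6 WKY, 6 ZSF1 Lean, 6 ZSF1 Obese) was sequenced as a stranded polyadenylated library, per the labels' protocols. DESeq2 1.22.2, HTSeq 0.11.2, HISAT2 2.1.0 and the build Rnor_6.0 are named per the submitters' processing notes, without settings or the strand mode of counting. Per the file headers, the authors' deposited tables give a linear fold (ratio of 2 groups) and an FDR, the authors' adjusted p-value. Folds of the lean table carry 2 decimals. The labels do not say that numbers pair rats, and separate animals are the replicates. Depth per sample is unknown.

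The folds were used as deposited, with log2 values, ranks, products and quotients computed in Python 3.11.15 with pandas 2.3.3 and numpy 2.4.6. As the files used hold no counts, no further test was fitted. Functions were tested on simulated data. The 7 genes and the 19 lists (254 symbols, 253 of them in the RefSeq table) were chosen with earlier results of these data known. Of each list, up to 5 genes with the largest log2 fold were named, all listed ones for S100 and interleukin-1 ligand and receptor genes; Ncf1, Ncf4, Cybb, Mmp9, Itgb2, Itgam, Cxcl1, Card9, Mitf, Stat5b, Ccl20, Pax8, Psd4, Ckap2l and Stk40, and genes named as not listed, were named after their values were seen. Some genes of the lists enter the counts but are not reported here by name. As the background, n tested is the number of listed genes, since unlisted genes were not analysed here. For each of the 7 genes the 3 nearest genes by Euclidean distance of log2 folds were taken, leaving out predicted and clone names. Candidates had to be listed in exactly the same comparisons as the gene. Alternatives were an adjusted p under 0.01 or 0.001, a fold of at least 4 and counting by symbol. Promoters are RefSeq sequences of GRCr8, of which the 250 bases before the start were used.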

Additional observations from a re-analysis of the deposited data

How the results depend on the processing

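With an adjusted p under 0.01 or 0.001, or when symbols were counted in place of identifiers, each count of the 7 genes and of the 120 other genes in 7 neutrophil and interleukin-1 lists stayed within 1.5 times its value. Under 0.01 and under 0.001 Oscar was no longer called in obese against WKY hearts. With a fold of at least 4, all 7 genes were still higher in obese than in lean hearts, while those called against WKY went from 4 to 0 and those lower in lean than in WKY hearts from 5 to 0, on the authors' DESeq2 values. The other genes higher in obese than in lean hearts went from 52 to 25 and those lower from 6 to 1; against WKY they went from 49 to 22 and from 8 to 1. Those lower in lean than in WKY hearts went from 3 to 0. At the main thresholds 53.4% of all listed genes were higher against lean hearts and 54% against WKY hearts. In lean against WKY hearts 36.1% were lower. The falls were counted on the folds as deposited. For genes listed in all 3 comparisons, the deposited lean to WKY folds were nearer to 1 than the quotients of the obese folds. By quotient, Oscar and Csf3r would still pass a fold of at least 4 in lean against WKY hearts, and Il1rn would not. Taking the obese to WKY fold as a product of steps, as planned, moved Oscar from 2.04 to 7.21 and Csf3r from 2.10 to 3.39. Taking the lean to WKY fold as a quotient, added after the data were seen, moved Oscar from 0.33 to 0.0934 and Csf3r from 0.33 to 0.204; the cause was not tested. No paired analysis was possible because the tables hold no values per rat, and for the same reason no rat could be left out. Depth is unknown, so a limit of detection cannot be given.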

Other observations

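Genes linked to osteoclasts, not all of them made by these cells, were higher in obese hearts where listed. Of 10, 4 were listed against lean hearts and 4 against WKY hearts, all higher, where 53.4% and 54% of all listed genes were higher. Acp5, the tartrate-resistant acid phosphatase of osteoclasts and macrophages, stood at 7.41 against lean and 9.13 against WKY hearts per the authors' deposited tables. Tnfrsf11b, which encodes osteoprotegerin, stood at 5.24 and 5.03, Tnfrsf11a, the receptor gene RANK, at 3.29 and 3.66, and Ctsk, the collagen-cleaving cathepsin K, at 2.41 and 2.69 per the authors' deposited tables. None was listed in lean against WKY hearts.

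Of 14 mast cell, basophil and eosinophil markers, 3 were higher and 1 lower in obese than in lean hearts and 5 higher than in WKY hearts. Among all listed genes 53.4% and 54% were higher in these comparisons. The tryptase genes Tpsab1 and Tpsb2 were higher in lean than in WKY hearts, at 2.35 and 2.06, and Tpsb2 stood at 0.5 in obese against lean hearts, the reverse course of S100a9, per the authors' deposited tables. Of 10 red cell markers 6 were higher and 1, Slc4a1, lower in obese than in lean hearts, and 7 were higher than in WKY hearts. The shares over all listed genes are those given above. Epb42, of the red cell membrane, stood at 0.43 in lean against WKY, 6.68 in obese against lean and 2.07 in obese against WKY hearts, beside 0.33, 10.3 and 2.10 for Csf3r, per the authors' deposited tables. Slc4a1, the only other red cell marker listed in lean against WKY hearts, was higher there, at 5.50 (adjusted p = 5.16e-66) per the authors' deposited table. The other 8 were not listed in that comparison, so the course of Epb42 is not that of the markers as a set.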
